A study of Mus with 12 samples.

Results

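The cytosolic ribosomal protein genes encode the proteins of the ribosome that works outside mitochondria. They were taken as every row of the deposited gene tables whose name matched the mouse symbols of this family (Rpl, Rps, Rplp and Rpsa) and that held an Ensembl transcript. These rows numbered 88 of 87235 in the table of the implantation stage and 85 of 40787 in the table of the labor stage. RNA had been sequenced from the whole uterus of 12 pregnant ICR mice, an outbred strain, aged 8 weeks, in 4 groups of 3 mice taken early (E0.5 and E4.5) or late (E15.5 and E18.5) in pregnancy, with no other treatment given in the labels and 1 mouse for each library. The study set E0.5 against E4.5 and E18.5 against E15.5 in order to follow RNA that goes with the fluctuation of progesterone around implantation and labor.

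A ribosome has a large subunit, which forms the peptide bond, and a small subunit, which reads the mRNA. Each is built in the nucleolus from ribosomal RNA and from about equal amounts of its proteins, and surplus ribosomal proteins are rapidly degraded. The mRNAs of these proteins start with a terminal oligopyrimidine (TOP) tract, through which the mTOR pathway controls their translation. Myc raises the transcription of ribosome components and of the factors that assemble them. In the uterus, hormone-driven growth and the decidual response raise the demand for protein synthesis. Of the 88 rows, 43 encoded large subunit proteins, 31 small subunit proteins and 3 the P stalk, which recruits translation factors to the large subunit. A further 8 were paralogs (Rpl3l, Rpl10l, Rpl39l, Rpl22l1, Rpl7l1, Rpl36al, Rps4l and Rps27l), and the type column of the table gave 3 more, Rpl6l, Rpl32l and Rps12l1, as pseudogenes. Rpl10l, Rpl32l and Rps12l1 were not among the rows of the labor table.

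Several rows held more than the ribosomal protein gene. Of the 88 rows of the implantation table, 30 carried more than 1 gene name, and 19 of them named small nucleolar RNAs, which lie in introns of their host genes. In the labor table these numbers were 27 and 17 of 85. In the implantation table they included the rows of Rpl3, Rpl4, Rpl5, Rpl6, Rpl7a, Rpl10, Rpl12, Rpl13, Rpl13a, Rpl17, Rpl19, Rpl21, Rpl23, Rpl23a, Rpl24, Rpl27a, Rpl30, Rpl32, Rpl36al, Rplp2, Rps2, Rps3, Rps10, Rps12, Rps13, Rps20 and Rpsa, and in the labor table the same rows without those of Rpl17, Rpl23 and Rps10. Protein-coding neighbours shared the rows of Rpl24 (with Zbtb11), Rpl13a (with Flt3l) and Rpl36al (with Dnaaf2 and Pole2) in both tables, and that of Rps10 (with Nudt3) in the implantation table. The row of Rpl24, a large subunit protein at the interface between the subunits, ran from 55966275 to 56008913 on the plus strand of chromosome 16. It also held the transcript to which the study designed its qRT-PCR primers for the long noncoding RNA named lncRNA-RPL24. The primers are shown because their target and the Rpl24 mRNA share 1 expression value.
lncRNA-RPL24-F: gccgtgcagtcaaattccaa
lncRNA-RPL24-R: agctgaccgtagagcaatcc
In this row FPKM (fragments scaled to transcript length and library size) was 3.67, 3.51 and 4.20 at E0.5 and 4.81, 3.89 and 3.65 at E4.5, and the groups overlapped. In the labor table it was 28.8, 14.6 and 18.2 at E15.5 and 16.9, 17.0 and 15.3 at E18.5, where the groups overlapped as well. The log2 fold change was -0.11 ± 0.19 (SE) for E0.5 against E4.5 (adjusted p = 0.799) and -0.26 ± 0.24 for E18.5 against E15.5 (adjusted p = 0.691).

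The implantation libraries held 5.80e+07 to 7.09e+07 counts each, and for the labor libraries only FPKM values were used, so that the counts behind a value are not known. Markers of smooth muscle, stroma, epithelium and endothelium were present in all 12 libraries. A pair of libraries stood apart. E4.5 replicate 3 had a summed 1450 FPKM of the 11 ovary and oviduct markers against 9.27 to 21.0 in the other implantation libraries, where Fshr and Zp3 were listed at 0, and 240.0 FPKM of the 11 smooth muscle markers against 865 to 1318. E15.5 replicate 1 had the lowest sum of epithelial markers of the labor libraries (214 FPKM against 345 to 1169), the highest sum of leukocyte markers (269 against 113 to 165) and 1342 FPKM of the decidual gene Prl8a2 against 40.2 to 86.0. Yolk sac and fetal liver markers ranged from 15.1 to 1190 FPKM over the labor libraries. The part of these markers in the results was not tested, and the counts and medians of the members are given with and without these 2 libraries.

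Ribosomal protein mRNA was abundant in every library. The member rows summed to 4537, 4476 and 6028 FPKM at E0.5 and to 5576, 6444 and 4237 at E4.5. This was 1.87% ± 0.392 (SD, n = 3) of all FPKM at E0.5 and 1.95% ± 0.318 at E4.5, or 5.93% ± 0.687 and 6.31% ± 1.54 of the FPKM of protein-coding rows, and the groups overlapped. In the labor libraries the sums were 15106, 7910 and 9705 FPKM at E15.5 and 8858, 7493 and 8592 at E18.5, which was 2.07% ± 0.676 and 1.65% ± 0.13 of all FPKM and 5.12% ± 1.43 and 4.003% ± 0.181 of the FPKM of protein-coding rows. E15.5 replicate 1 had the highest sum of its table, the other 5 labor libraries lay between 7493 and 9705 FPKM, and the groups overlapped. The tables were normalized separately, so that a level in one was not compared with a level in the other.

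Single rows spanned a wide range. The median member had a mean of 33.2 FPKM in the implantation table and 74.5 in the labor table. The P stalk proteins Rplp1 and Rplp0 had the highest means in both tables, with 499 and 401 FPKM in the former and 654 and 460.2 in the latter. Rps6, the small subunit protein phosphorylated by S6 kinase below mTOR, followed at the implantation stage with 232 FPKM before Rpl4 with 196. In the labor table Rps15 followed with 418 FPKM, Rps3a1 with 405 and Rpl32 with 359. Of the 88 rows, 19 had a mean under 10 FPKM at the implantation stage, and 3 (Rpl3l, Rpl10l and Rps12l1) were under the minimum of 0.1 FPKM for a test. At the labor stage 6 of 85 were under 10 FPKM and Rpl3l alone was under the minimum.

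Between E0.5 and E4.5, around the time when the embryo reaches the uterus, ribosomal protein mRNA showed no difference past the threshold of the main test. With edgeR, 0 of 85 tested members had an adjusted p under 0.05, where 1.22% of all 59732 tested rows and 2.94% of tested protein-coding rows did. At an unadjusted p under 0.05, 1 member (Rps25) was higher at E0.5 and 5 (Rpl36al, Rpl37, Rps19, Rps24 and Rpl39l) were lower, against 8.3% and 8.75% of all rows. With DESeq2, 1 member (Rpl36al) had an adjusted p under 0.05, against 9.85% of all rows. The study's criterion, a change of 1 log2 unit or more at an unadjusted p under 0.05, took in 1 member (Rpl39l) against 12.2% of all rows. The log2 fold change was below 0, and thus the level higher at E4.5, in 67 of 85 members, where this held for 50.4% of all rows and 61.2% of protein-coding rows. Its median was -0.13 over the members and -0.01 over all rows. In the same libraries 11 of 12 proliferation genes were lower and 4 of 12 epithelial markers higher at E0.5 at an adjusted p under 0.05, and 1 of 12 stromal and decidual genes (Bmp2) was lower and 1 of 10 leukocyte genes (Csf1r) higher. The stromal and leukocyte lists were mixed, with medians of -0.12 and -0.29 and 7 of 12 and 6 of 10 below 0. At an unadjusted p under 0.05, 3 stromal genes were higher and 2 lower, and 3 leukocyte genes were higher and 0 lower. Of the endothelial markers 6 of 10, with a median log2 fold change of -0.71 over the list, and of the ovary and oviduct markers 6 of 11 were lower at E0.5 at an unadjusted p under 0.05, and the part of these genes in these values was not tested. In bulk tissue, fewer cells of a type and less RNA per cell cannot be told apart.

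The counts and the median depended on single libraries. Without E4.5 replicate 3 the median of the members was -0.29 and 17 were lower at E0.5 (10.1% of all rows, 17.8% of protein-coding rows), with 0 past the adjusted p. Without E0.5 replicate 3 the median was -0.28 and 12 were lower (6.81% of all rows, 12.6% of protein-coding rows). Without E0.5 replicate 1 or E4.5 replicate 1 only 1 was lower, and without E0.5 replicate 2 or E4.5 replicate 2 only 2 were, where 6.08% to 8.06% of all rows were. Without any 1 of these 4 libraries the median was from -0.09 to -0.06 and 51 to 53 of 85 members were below 0 (49.1% to 52.7% of all rows), while 71 were without E0.5 replicate 3 and 77 without E4.5 replicate 3 (51.1% and 46.4% of all rows). The median deviation of the members from their own means over the 6 libraries, in log2 units, was -0.17, -0.18 and 0.17 for the mice of E0.5 and 0.17, 0.29 and -0.25 for those of E4.5. In both groups, therefore, 1 library lay on the side of the other group.

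**Figure D1:**
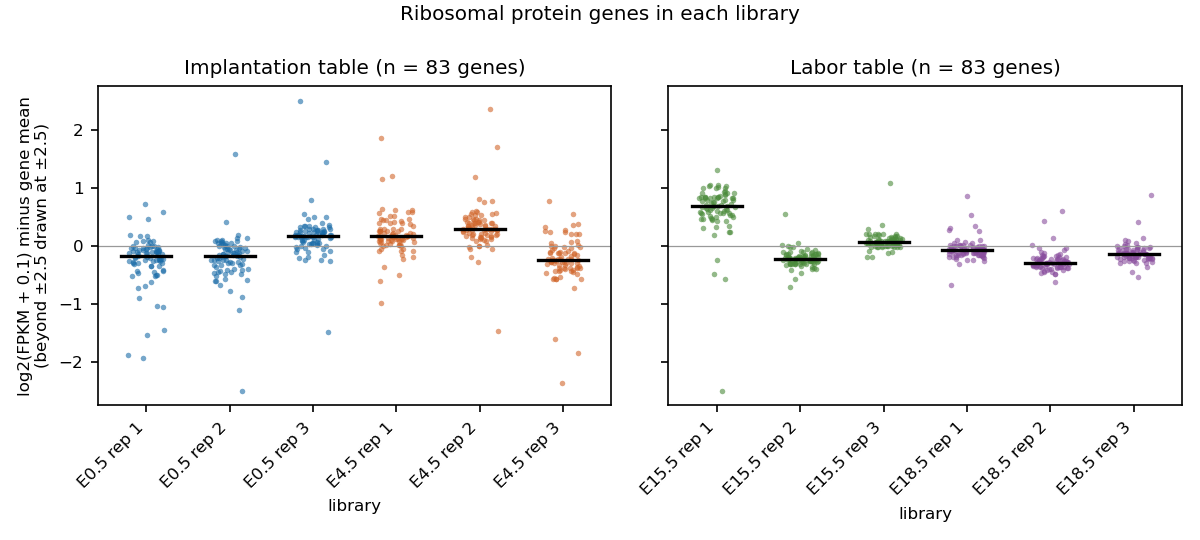
Each point is 1 of 83 ribosomal protein genes (mean of 1 FPKM or more), plotted by library on the x axis against its log2(FPKM + 0.1) minus its mean over the 6 libraries of the table on the y axis, and black lines are medians. The median is 0.17 in E0.5 replicate 3 and -0.25 in E4.5 replicate 3, and E15.5 replicate 1 stands above the other 5 labor libraries at 0.68.

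Large subunit proteins had a median log2 fold change of -0.18, with 34 of 43 below 0. Rpl37, a zinc-binding protein of the large subunit, had 18.6, 18.8 and 27.6 FPKM at E0.5 and 35.4, 32.3 and 30.4 at E4.5. All E4.5 libraries were above all E0.5 libraries, and the log2 fold change was -0.59 ± 0.22 (SE, adjusted p = 0.240). Rpl36 had 7.51, 10.2 and 30.3 FPKM at E0.5 and 49.3, 37.7 and 26.5 at E4.5, where the groups overlapped through E0.5 replicate 3 (adjusted p = 0.321). Rpl23a, a protein at the exit of the peptide tunnel, had 11.5, 12.7 and 21.1 FPKM at E0.5 and 28.2, 27.1 and 18.7 at E4.5. Its groups overlapped through the replicates numbered 3 (log2 fold change -0.70 ± 0.31, adjusted p = 0.308).

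Rpl5 and Rpl11 bind 5S ribosomal RNA and, when ribosome assembly is disturbed, the p53 regulator Mdm2. Rpl5 had 66.7, 66.6 and 67.2 FPKM at E0.5 and 56.5, 62.4 and 39.5 at E4.5, and Rpl11 had 21.6, 22.2 and 29.7 against 27.8, 32.9 and 25.8. The groups did not overlap for Rpl5, which was higher at E0.5, and overlapped for Rpl11. The log2 fold changes were 0.35 ± 0.22 and -0.22 ± 0.20 (adjusted p = 0.452 and 0.597). The large subunit protein Rpl9 was likewise higher in all E0.5 libraries (45.9, 41.3 and 47.7 FPKM against 38.0, 41.0 and 32.3, adjusted p = 0.426). For Rpl7 the log2 fold change was 0.19 ± 0.19 (adjusted p = 0.651). Without E4.5 replicate 3 the log2 fold change was 0.16 for Rpl5, 0.17 in place of 0.28 for Rpl9 and 0.05 for Rpl7, and with 1 library left out that of Rpl11 was from -0.39 (without E0.5 replicate 3) to -0.12 (without E0.5 replicate 1).

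Small subunit proteins had a median of -0.07, with 24 of 31 below 0. Rps19 and Rps24 were lower at E0.5 at an unadjusted p under 0.05, and Rps25 was higher. Rps19, a protein needed to process the small subunit's RNA and a gene of the inherited anaemia named after Diamond and Blackfan, had 18.8, 17.9 and 22.4 FPKM at E0.5 and 26.1, 33.3 and 23.4 at E4.5. The groups did not overlap (log2 fold change -0.48 ± 0.19, adjusted p = 0.280). Rps24 had 4.15, 5.06 and 7.50 FPKM at E0.5 and 8.10, 12.2 and 7.35 at E4.5, with groups that overlapped (log2 fold change -0.71 ± 0.30, adjusted p = 0.288). Rps25, which takes part in initiation at internal ribosome entry sites, had 25.1, 25.6 and 41.3 FPKM at E0.5 and 21.0, 20.9 and 16.4 at E4.5. Its groups did not overlap either, and its log2 fold change of 0.66 ± 0.26 (adjusted p = 0.259) was opposite in sign to those of Rps19 and Rps24. Without E0.5 replicate 3 it was 0.38. With the rows of their pseudogenes added, the groups of Rps19 and of Rps25 overlapped. Rps6 had a log2 fold change of -0.06 ± 0.21 and Rpsa, known also as a laminin receptor, of -0.13 ± 0.26 (adjusted p = 0.911 and 0.830).

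The P stalk had log2 fold changes near 0. Rplp0 had 370.1, 358 and 481 FPKM at E0.5 and 423, 482 and 292 at E4.5, Rplp1 had 392, 392 and 680.0 against 541, 620 and 371, and Rplp2 had 32.6, 36.2 and 33.1 against 39.6, 37.5 and 22.4. The groups overlapped for each of the 3, with log2 fold changes of 0.02 ± 0.25, -0.06 ± 0.31 and 0.04 ± 0.26. Over the 85 tested members, groups did not overlap for 3 that were higher at E0.5 (Rpl5, Rpl9 and Rps25) and for 5 that were lower (Rpl36al, Rpl37, Rpl7l1, Rps19 and Rps27l), against 12.8% and 12.5% of all rows.

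**Figure D2:**
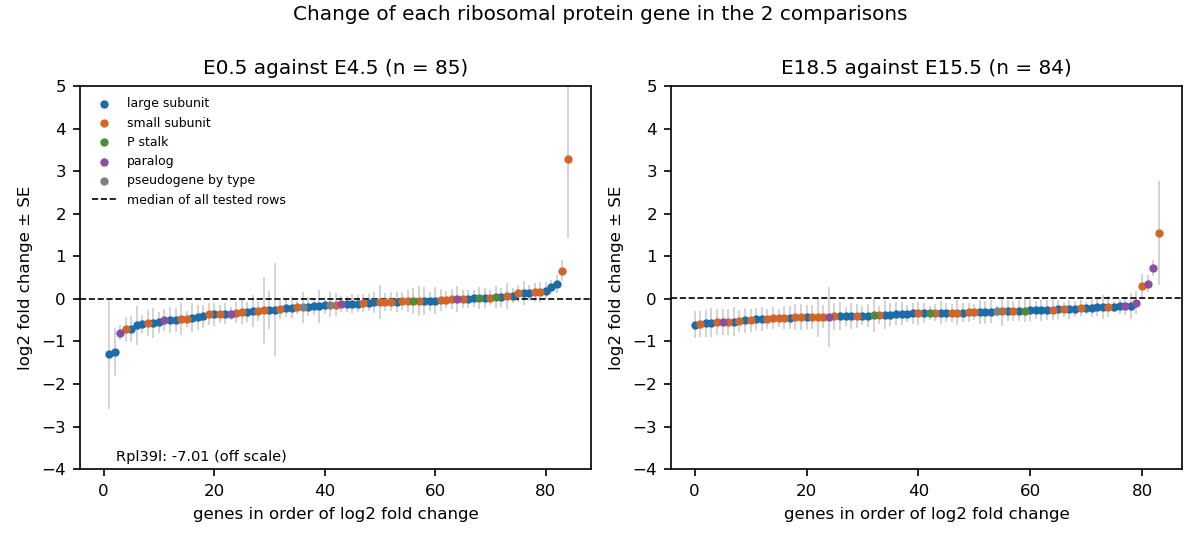
Log2 fold changes with standard errors of the 85 and 84 tested ribosomal protein genes, in order of size, for E0.5 against E4.5 on the left and E18.5 against E15.5 on the right, coloured by role, with Rpl39l off the scale on the left. Values below 0 prevail in both comparisons (67 of 85 and 80 of 84), and the widest bars are those of Rps2 and Rpl26 on the left and of Rps16 on the right.

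A few rows differed between replicates by far more than between days. At the implantation stage, 5 of the 83 members with means of 1 FPKM or more differed over 5-fold between their highest and lowest library, and they are named here after their values were seen. Rps2, a small subunit protein, had 0.719, 1.65 and 83.5 FPKM at E0.5 and 6.81, 0.983 and 0.740 at E4.5. Rpl26 had 5.29, 61.9 and 7.31 at E0.5 and 74.4, 105.5 and 3.94 at E4.5. Rpl41, the smallest ribosomal protein, had 2.69 FPKM in E0.5 replicate 2 and 92.7 to 171 in the others. Rpl36 (above) and Rps27a, which is made as a fusion with ubiquitin and had 3.12 to 32.1 FPKM, were the remaining 2. For Rpl26 both groups held high and low values, while Rps2 was high in 1 E0.5 library and Rpl41 low in 1. The log2 fold change was 3.28 ± 1.86 for Rps2 (adjusted p = 0.405) and -1.29 ± 1.29 for Rpl26 (adjusted p = 0.649), where it was -3.28 without E0.5 replicate 2 and -0.71 without E4.5 replicate 2.

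Much of the FPKM of these gene families lay under the names of pseudogenes. Processed pseudogenes are copies of mRNAs in the genome whose sequence is close to the parent gene, so that reads of one can be assigned to the other, and which row a read belongs to is uncertain for them. At the implantation stage, 318 rows were named as pseudogenes of 63 members, and in the median family they held 22.9% of the summed FPKM of gene and pseudogenes. At the labor stage, 209 rows were named for 56 members and held 38.0%. Their share was over 50% in 21 families of the implantation table and in 24 of the labor table. FPKM is scaled to transcript length, so a short row has more FPKM per count than a long one. Of all counts in the implantation libraries, pseudogene rows held 0.14% to 0.282% and the members 1.02% to 1.52%. In FPKM the pseudogene rows summed there to 1928 to 3413 and the members to 4237 to 6444.

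The families where the share was largest differed between the tables. In the family of Rps2, pseudogene rows held 95.3% of the FPKM in the implantation table and 21.3% in the labor table, and in that of Rpl34 98.3% and 29.7%. In the families of Rpl10 and Rps12 the pseudogene rows held more at the labor stage, with 92.8% against 61.5% and 91.4% against 69.5%. For Rps2 the sum over the gene and its pseudogene rows was 288, 291 and 278 FPKM at E0.5 and 519, 406 and 245 at E4.5, so that the high value of the Rps2 row in E0.5 replicate 3 was not seen in the sum. With each member summed with its named pseudogenes, the log2 fold change of Rps2 was -0.32 ± 0.32 (adjusted p = 0.641) in place of 3.28. These families were chosen after their values were seen. For Rps25, whose pseudogene row held 24.2% of its family, the sum was 29.3, 29.6 and 47.8 FPKM at E0.5 and 31.2, 36.6 and 23.9 at E4.5, and for Rps19, with 74.6% in 14 pseudogene rows, it was 66.6, 66.6 and 139.9 against 96.7, 127.5 and 62.6. The groups thus overlapped in the sums of both genes and did not in their own rows. Of the other named members, Rps24 had sums of 6.58, 10.1 and 10.01 FPKM against 12.9, 32.6 and 11.7, which did not overlap, and those of Rpl36 (30.3, 28.7 and 51.6 against 51.3, 48.4 and 37.5) and Rpl23a (19.6, 21.4 and 35.2 against 39.3, 42.1 and 30.3) did. Rpsa-ps10, the pseudogene row with the most FPKM in the family of Rpsa, had 15.46 FPKM in E4.5 replicate 3 and 188 to 568 in the other implantation libraries.

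**Figure D3:**
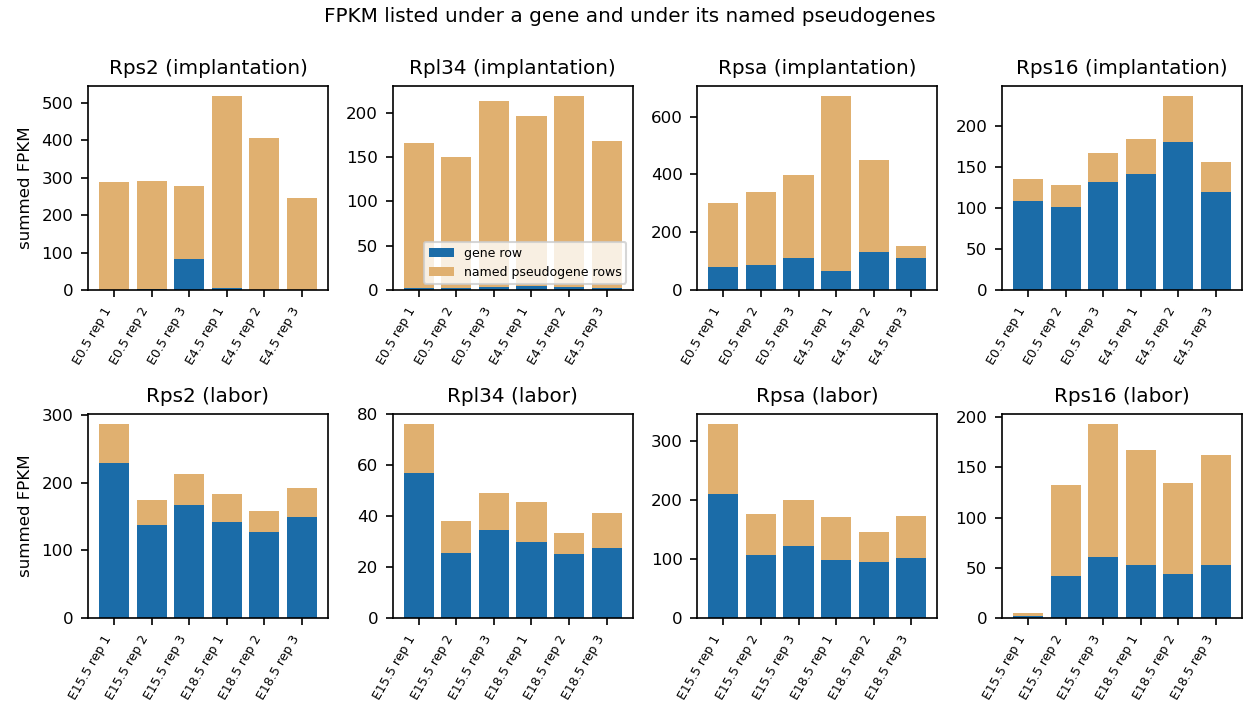
FPKM per library listed in the row of a gene (blue) and in the rows of its named pseudogenes (tan, stacked), for Rps2, Rpl34, Rpsa and Rps16, with the implantation table in the upper and the labor table in the lower panels. Pseudogene rows hold 98.3% of the FPKM of the Rpl34 family in the upper panel and 29.7% in the lower, and the sum of the Rps16 family is 4.97 FPKM in E15.5 replicate 1.

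Between E18.5 and E15.5, as labor approaches, ribosomal protein genes had log2 fold changes slightly below 0 in nearly all rows, and none passed the test. With limma, 0 of 84 tested members had an adjusted p under 0.05, where 0.0259% of the 30928 tested rows did. At an unadjusted p under 0.05, 1 member (Rps4l) was higher at E18.5 and 0 were lower, against 6.64% and 5.51% of all rows. The study's criterion took in 0 members against 6.05% of all rows. The log2 fold change on the log2(FPKM + 0.1) scale was below 0 in 80 of 84 members and in 47.7% of all rows and 44.9% of protein-coding rows. Its median was -0.33 over the members and 0.02 over all rows, with a median of -0.33 in the large subunit, -0.41 in the small subunit and -0.33 in the P stalk.

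The size of this difference depended on single libraries. Of the 83 members with means of 1 FPKM or more, 79 had their highest value in E15.5 replicate 1, where 31.3% of all rows and 31.7% of protein-coding rows at that level had theirs. The median deviation of the members in log2 units was 0.68, -0.23 and 0.06 for the mice of E15.5 and -0.08, -0.29 and -0.14 for those of E18.5. Without E15.5 replicate 1 the median log2 fold change was -0.09, 69 of 84 members were below 0 (46.4% of all rows), and 1 was higher and 0 lower at an unadjusted p under 0.05 (5.57% and 5.04% of all rows). Without E15.5 replicate 2 the median was -0.53 and 26 members were lower at an unadjusted p under 0.05 (4.59% of all rows), with 0 past the adjusted p. Without E18.5 replicate 1 and E18.5 replicate 3 there were 2 and 1 lower (4.59% and 5.39% of all rows). The markers of leukocytes and epithelium and the decidual gene Prl8a2 set E15.5 replicate 1 apart as well (above), while the median log2 deviation of 11 stromal and decidual genes there was 0.27. It had the highest sum of proliferation genes (91.1 FPKM against 44.7 to 59.96) and the lowest of smooth muscle markers (3123 FPKM against 3417 to 4970). At an unadjusted p under 0.05, 8 of 12 epithelial, 3 of 8 trophoblast and 2 of 6 ovary and oviduct markers were higher at E18.5 (6.64% of all rows). Lower at E18.5 were 5 of 10 leukocyte, 3 of 10 endothelial, 3 of 8 erythroid and 1 of 6 ovary and oviduct markers (5.51% of all rows). Of these, 0 passed the adjusted p, and the part of these cells was not tested.

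The 6 abundant members described next had their highest value in E15.5 replicate 1. Rplp1 had 1159, 479 and 632 FPKM at E15.5 and 604, 400.2 and 651 at E18.5 (log2 fold change -0.39 ± 0.41, adjusted p = 0.727). Rplp0 had 667, 395 and 464 against 434, 370 and 431 (adjusted p = 0.711), and Rps6 360, 167 and 194 against 184.6, 162 and 159.7 (adjusted p = 0.606). The groups overlapped in each of these 3. In Rps3a1, with 657, 357 and 391 FPKM at E15.5 and 350.2, 330 and 342 at E18.5, they did not (log2 fold change -0.41 ± 0.29, adjusted p = 0.605). Rpl32 had 677, 290.3 and 349 FPKM at E15.5 and 294, 265 and 275 at E18.5 (log2 fold change -0.56 ± 0.34, adjusted p = 0.550). Rps15 differed less, with 521, 356 and 462 against 417, 329 and 422 FPKM (adjusted p = 0.788). Without E15.5 replicate 1 the log2 fold change was -0.03 for Rplp1, -0.06 for Rplp0, -0.10 for Rps6, -0.13 for Rps3a1, -0.20 for Rpl32 and -0.07 for Rps15.

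The members with the lowest fold changes were Rpl39, Rps27a, Rpl13a, Rpl32 and Rps7. Rpl39, a short protein in the wall of the peptide tunnel, had 187, 76.1 and 99.4 FPKM at E15.5 and 78.2, 67.1 and 75.4 at E18.5 (log2 fold change -0.61 ± 0.32, adjusted p = 0.495). Rps27a had 77.1, 32.8 and 38.7 FPKM against 32.6, 29.8 and 29.1, and its groups did not overlap by a margin of less than 1 FPKM (adjusted p = 0.489). Rpl13a, a large subunit protein that also takes part in translational silencing in inflammation, had 109.8, 45.5 and 55.8 FPKM against 43.0, 43.7 and 44.9 (adjusted p = 0.505). Rps7 had 167, 74.2 and 84.6 against 71.3, 65.3 and 72.4 (adjusted p = 0.514). The log2 fold changes of these 5 ran from -0.61 to -0.55, and without E15.5 replicate 1 they were -0.24, -0.23, -0.20, -0.20 and -0.19 in the order named. Over the 84 tested members, the E18.5 libraries were all lower in 9 and all higher in 1, against 8.96% and 10.9% of all rows.

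Only 4 tested members were above 0, namely Rps16, Rps4l, Rpl7l1 and Rps29. Rps16, a small subunit protein, had 1.79 FPKM in E15.5 replicate 1 and 42.4 and 61.3 in the other E15.5 libraries, against 52.4, 44.2 and 53.003 at E18.5. Its value was thus lowest in the library in which most members were highest, and its log2 fold change of 1.55 ± 1.22 (adjusted p = 0.642) was -0.04 without that library. The row of its pseudogene Rps16-ps2 was low in the same library, with 3.18 FPKM against 89.6 to 132. Rps29, a small zinc-binding protein of the small subunit, had 86.4, 95.8 and 155.001 FPKM at E15.5 and 149, 103 and 160.2 at E18.5 (adjusted p = 0.682).

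**Figure D4:**
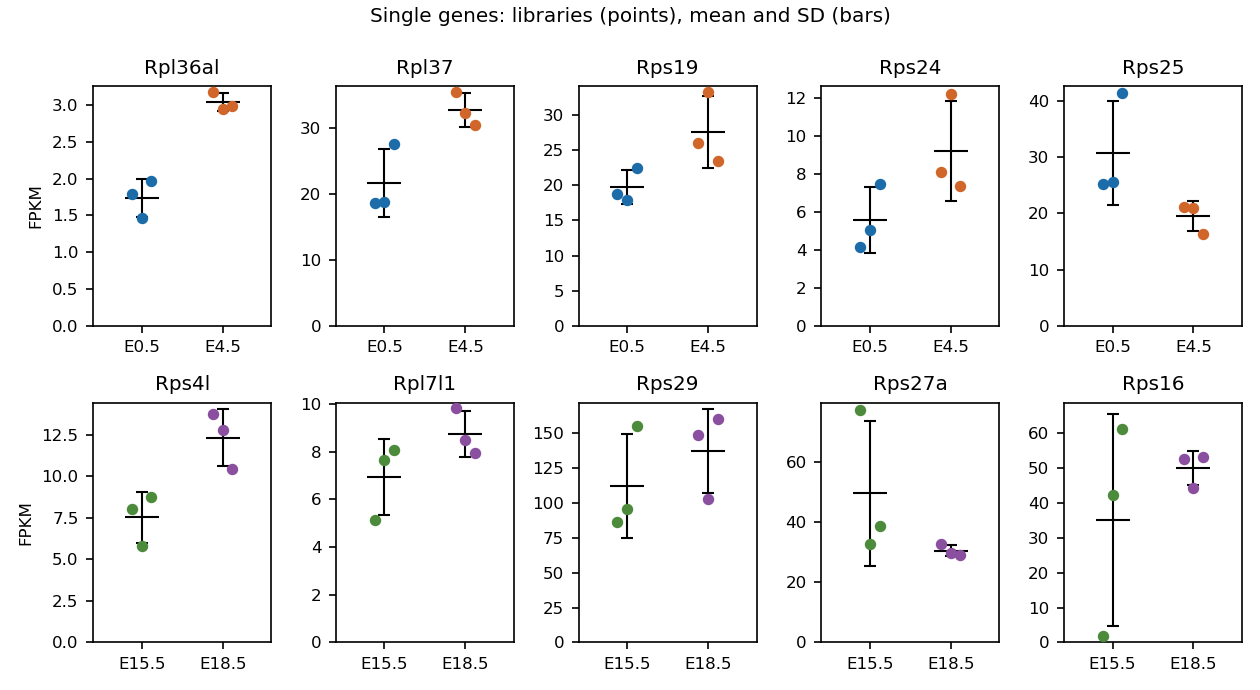
FPKM of single genes in each library (points) with the group mean and SD (black bars), for 5 genes of the implantation comparison in the upper row and 5 of the labor comparison in the lower row. Groups are apart for Rpl36al, Rpl37, Rps19 and Rps25 above and for Rps4l and Rps27a below, and for Rps16 the mean at E15.5 is pulled down by E15.5 replicate 1 at 1.79 FPKM.

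With all libraries, the log2 fold changes of some paralogs were opposite in sign to those of the genes they resemble. Whether a paralog differed from its parent was not tested. Rps4l, a copy of Rps4x that the type column gave as a transcribed processed pseudogene, had 8.05, 5.79 and 8.74 FPKM at E15.5 and 13.7, 12.8 and 10.4 at E18.5. All E18.5 libraries were above all E15.5 libraries (log2 fold change 0.72 ± 0.19, adjusted p = 0.223). Rps4x had 267, 136 and 151.7 FPKM at E15.5 and 129, 124 and 137 at E18.5 (log2 fold change -0.44 ± 0.27, adjusted p = 0.554). Without E15.5 replicate 1 the log2 fold change was 0.78 for Rps4l and -0.15 for Rps4x. In FPKM the Rps4l row was 3.01%, 4.25% and 5.76% of the Rps4x row at E15.5 and 10.7%, 10.3% and 7.60% at E18.5. At the implantation stage Rps4l had 6.86, 3.57 and 4.48 FPKM at E0.5 and 5.45, 5.37 and 4.13 at E4.5, where the groups overlapped (adjusted p = 0.996).

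Rpl7l1 is the counterpart of a yeast factor that assembles the large subunit and is not itself part of the mature ribosome. It had 5.46, 5.59 and 6.20 FPKM at E0.5 and 7.49, 7.83 and 6.74 at E4.5, and all E4.5 libraries were above all E0.5 libraries (log2 fold change -0.35 ± 0.16, adjusted p = 0.328). Late in pregnancy it had 5.12, 7.65 and 8.05 FPKM at E15.5 and 9.83, 8.48 and 7.94 at E18.5, with groups that overlapped (log2 fold change 0.35 ± 0.20, adjusted p = 0.522). As for Rps16 and Rps29, E15.5 replicate 1 was its lowest library. Its parent Rpl7 had 282 FPKM in that library and 132 to 164 in the other labor libraries, with a log2 fold change of -0.17. Without that library the log2 fold change was 0.15 for Rpl7l1 and 0.18 for Rpl7.

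Rpl36al had the smallest adjusted p of the members at the implantation stage. Its row had 1.79, 1.46 and 1.97 FPKM at E0.5 and 3.17, 2.94 and 2.99 at E4.5, with no overlap. The log2 fold change was -0.79 ± 0.18 (adjusted p = 0.097 with edgeR and 0.0065 with DESeq2). Over the 16 alternatives the adjusted p ranged from 0.0065 to 0.299. This row (chromosome 12, 69182731 to 69228195, minus strand) also holds Dnaaf2, a factor of cilia assembly, and Pole2, a subunit of a replicative DNA polymerase. Of the 12 proliferation genes, 11 were lower at E0.5 at an adjusted p under 0.05, and the part of Pole2 in the value of this row was not tested. At the labor stage Rpl36al had 12.6, 7.60 and 9.25 FPKM at E15.5 and 9.70, 7.96 and 7.95 at E18.5 (log2 fold change -0.17 ± 0.20).

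The remaining paralogs ranged from rows at 0 to rows above their parents. Rpl22l1 was 30.6% to 47.2% of Rpl22 over the implantation libraries and 30.8% to 44.9% over the labor libraries, with log2 fold changes of -0.13 ± 0.19 and -0.54 ± 0.31. Rps27l, a p53 target in other tissues, was lower in all E0.5 libraries (25.2, 13.8 and 26.4 FPKM against 30.4, 29.8 and 32.8, adjusted p = 0.376) and had a log2 fold change of -0.09 ± 0.28 at the labor stage. It was 83.6% to 423% of Rps27 over the implantation libraries and 40.2% to 64.3% over the labor libraries. Rps27 itself had log2 fold changes of -0.48 ± 0.38 and -0.41 ± 0.31. Without E15.5 replicate 1 the labor values were -0.18 for Rpl22l1, 0.19 for Rps27l and -0.10 for Rps27. Rpl39l, known from the testis, was without counts in all E0.5 libraries and in E4.5 replicate 2, and had 25 and 23 counts in the other E4.5 libraries. With E0.5 set to a floor of 3 counts per library, its mean was 5.22-fold lower at E0.5. This value depends on the floor and rests on the E4.5 libraries with counts (adjusted p = 0.286 with edgeR on the counts). The median of the members with this gene at that value stayed at -0.13. Rpl3l, known from heart and skeletal muscle, reached at most 0.154 FPKM, and Rpl10l, known from the testis, 0.045. Rps12l1 was listed at 0 in all 6 implantation libraries. Of the rows typed as pseudogenes, Rpl6l and Rpl32l had log2 fold changes of -0.14 ± 0.29 and -0.20 ± 0.37 at the implantation stage.

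The effect of the day was compared between the stages over 84 members that share transcripts in both tables. The difference of the log2 fold changes, implantation minus labor, had 0 members past an adjusted p of 0.05 with limma, against 2.64% of 22056 paired rows. At an unadjusted p under 0.05 there were 3 below 0, against 11.1% of the paired rows. They were Rpl7l1 with -0.70 (adjusted p = 0.168), Rpl36al with -0.61 (adjusted p = 0.266) and Rps4l with -0.76 (adjusted p = 0.275). All are paralogs. The median difference was 0.18 over the members and -0.13 over the paired rows, and without E15.5 replicate 1 the median over the members was -0.02.

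Fau and Rack1, ribosomal proteins whose symbols lie outside the family's naming, were also highest in E15.5 replicate 1. Fau, which is made as a fusion with the small subunit protein S30, had 185.2, 97.6 and 119.9 FPKM at E15.5 and 110.4, 88.7 and 97.2 at E18.5. Rack1, a scaffold on the small subunit, had 174, 72.2 and 94.9 against 77.0, 63.9 and 76.7. For E0.5 against E4.5 the log2 fold changes of Fau and Rack1 were -0.03 and -0.15, and neither passed the adjusted p in either comparison. Of the 18 translation factors with TOP mRNAs, 10 were highest and 6 lowest in E15.5 replicate 1 (31.7% and 34.2% of protein-coding rows), and among the former was the elongation factor Eef1a1 with 2837 FPKM against 1682 to 1850. Their median log2 fold change was 0.09 for E0.5 against E4.5 and -0.06 for E18.5 against E15.5, and 0 of 18 passed the adjusted p in either. Without E4.5 replicate 3 the first of these medians turned to -0.08, and without E15.5 replicate 1 the second was -0.03.

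Mitochondrial ribosomal proteins, which form the separate ribosome of mitochondria, were ordered over the libraries as follows. Of 77 rows of the implantation table with means of 1 FPKM or more, 42 were highest in E4.5 replicate 3, where 38.6% of protein-coding rows and 3 of 83 cytosolic members were highest. In the labor table, 46 of 78 were highest in E15.5 replicate 1, as were 31.7% of protein-coding rows. Their median log2 fold change was -0.26 for E0.5 against E4.5 and -0.04 for E18.5 against E15.5, and 0 of 78 passed the adjusted p in either comparison. Without E15.5 replicate 1 the second median turned to 0.06, with 27 of 78 below 0 in place of 48, and without E4.5 replicate 3 the first was -0.22 and 1 of 78 passed the adjusted p (6.08% of all rows). At an unadjusted p under 0.05, 1 was higher and 14 were lower at E0.5 (8.3% and 8.75% of all rows), and 0 were higher or lower at E18.5 (6.64% and 5.51%). Whether these lists differ from the cytosolic members was not tested.

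The factors that assemble ribosomes had higher summed levels in the E4.5 libraries. Their 42 rows summed to 171, 148 and 163 FPKM at E0.5 and 257, 258 and 218 at E4.5, so that every E4.5 library was above every E0.5 library, while the sums of ribosomal protein rows overlapped. The median log2 fold change was -0.68, with 39 of 42 below 0. At an unadjusted p under 0.05, 27 of 42 were lower at E0.5 and 0 higher (8.75% and 8.3% of all rows), and 1 (Bysl) was lower at an adjusted p under 0.05 (1.22% of all rows in either direction). Bysl, a factor of small subunit assembly, had 0.433, 0.726 and 0.422 FPKM at E0.5 and 2.22, 2.73 and 1.81 at E4.5 (log2 fold change -2.08 ± 0.32, adjusted p = 0.043). Without E4.5 replicate 3, 16 of the 42 were lower at an adjusted p under 0.05, where 6.08% of all rows passed it. Without E0.5 replicate 1, 2 or 3 or E4.5 replicate 1 or 2 there were 0, where 0% to 0.253% of all rows passed. With DESeq2 there were 17 (9.85% of all rows) and with limma on FPKM 0 (1.51%). The proliferation genes named above were lower at E0.5 in the same libraries, and their part in these values was not tested.

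Next in the order of p were Dkc1, the pseudouridine synthase of ribosomal RNA (1.42, 1.10 and 1.32 FPKM against 4.57, 3.62 and 2.25, adjusted p = 0.084), and Wdr43, a factor of pre-ribosomal RNA processing (2.55, 2.63 and 2.69 against 5.23, 4.82 and 3.90, adjusted p = 0.094). Polr1a, the largest subunit of the polymerase that makes ribosomal RNA, had 2.85, 2.09 and 2.67 FPKM at E0.5 and 4.12, 4.88 and 8.03 at E4.5 (adjusted p = 0.097). Fbl, the methyltransferase of ribosomal RNA, had a log2 fold change of 0.21 ± 0.15 (adjusted p = 0.501). For E18.5 against E15.5 the median of the 42 was 0.09, and 2 were higher and 0 lower at an unadjusted p under 0.05 (6.64% and 5.51% of all rows), with 0 past the adjusted p.

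Initiation factors had medians of -0.26 and 0.05, with 3 of 26 lower at E0.5 at an unadjusted p under 0.05 (8.75% of all rows) and 0 past the adjusted p in either comparison. The 25 regulators of ribosomal protein synthesis had medians of -0.11 and 0.10, and 0 of 25 passed the adjusted p in either comparison, where 2 were higher and 3 lower at E0.5 and 2 higher and 1 lower at E18.5 at an unadjusted p under 0.05 (8.3% and 8.75%, and 6.64% and 5.51%, of all rows). The values of 3 regulators are given, chosen after they were seen. Myc had 2.89, 2.63 and 3.37 FPKM at E0.5 and 14.1, 14.2 and 3.46 at E4.5, where E4.5 replicate 3 was close to the E0.5 libraries (log2 fold change -1.84 ± 0.53, adjusted p = 0.152). Mycn, its paralog, had 9.98, 7.67 and 11.4 FPKM at E0.5 and 4.46, 5.22 and 2.36 at E4.5 (log2 fold change 1.27 ± 0.33, adjusted p = 0.126). Eif4ebp2, a repressor of initiation that mTOR inactivates, had 23.2, 20.9 and 21.8 FPKM against 12.6, 14.98 and 13.4 (log2 fold change 0.69 ± 0.15, adjusted p = 0.079).

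**Figure D5:**
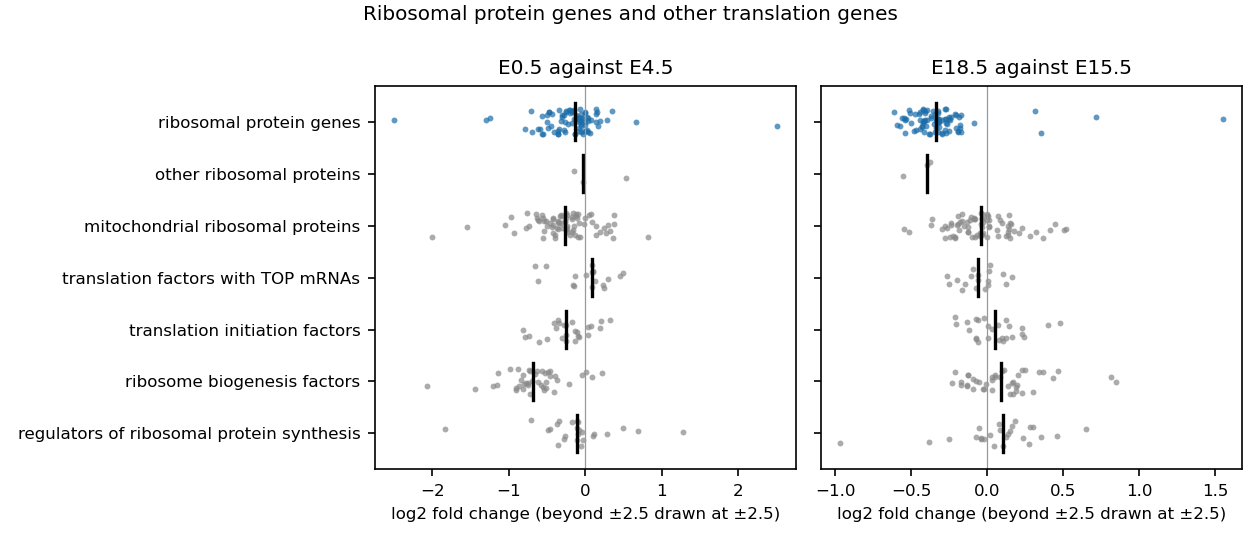
Log2 fold changes (x axis) of the ribosomal protein genes (blue) and of 6 lists of other translation genes (grey), 1 point for each tested row, for E0.5 against E4.5 on the left and E18.5 against E15.5 on the right, with black lines at the medians. The ribosome biogenesis factors have a median of -0.68 on the left and 0.09 on the right, where the ribosomal protein genes have -0.13 and -0.33. The scales of the 2 x axes differ.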

How the data were processed

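Per the study's methods, Cutadapt trimmed the reads, StringTie assembled the aligned reads into transcripts, and Ballgown gave the FPKM of the merged assembly. The FPKM values of both stages and the counts of the implantation stage were deposited by the authors in 1 table per stage. The submitters' processing notes list HISAT2 2.0, Bowtie 0.12.2 and StringTie 1.3.0 with builds mm8 and mm10, where the study's methods name Bowtie2 and Tophat2. The methods give removal of ribosomal RNA and the labels poly(A) selection, so that the library type is uncertain. How reads were assigned to rows is not given in the sources used here. Coordinates are those of the deposited table, and the intervals of all 88 members overlap the gene of their name in GRCm38.p6. The placeholder of 0.0001 FPKM was set to 0. Assembled loci that carry an identifier but no gene name held 1.02% to 1.86% of counts and were kept. No value column was left unused (0 columns).

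In R 4.3.3, the quasi-likelihood test of edgeR 4.0.16 with TMM scaling was used for counts. For FPKM of E15.5 and E18.5, limma 3.58.1 with a trend was fitted to log2(FPKM + 0.1), which understates changes of low rows. Rows entered if their mean over a table's 6 libraries reached 0.1 FPKM, and p-values were adjusted over all of them by the Benjamini-Hochberg method. The difference between the stages was tested with limma over the 12 libraries on rows paired by Ensembl transcripts. An exact permutation test of 3 against 3 libraries cannot give a two-sided p below 0.1 and was not used. The p-values measure the spread between mice of a group.

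The members and lists were chosen with earlier results of these data known. Named members are those with the 5 highest and 5 lowest fold changes among means of 1 FPKM or more and the 5 highest means of each table, the paralogs with their parent genes, merged rows and rows under the minimum, and Rpl24, Rplp0, Rplp1, Rplp2, Rpsa, Rps6, Rpl5 and Rpl11. Rpl37, Rps19 and the genes of other lists (Bysl, Dkc1, Wdr43, Polr1a, Fbl, Eef1a1 and the regulators) were named after their values were seen. The 10 lists of cell type markers cover epithelium, stroma and decidua, smooth muscle, endothelium, leukocytes, erythroid cells, trophoblast, yolk sac and fetal liver, ovary and oviduct, and fat. Alternatives were other normalizations (RLE, upper quartile, none, 75th percentile, quantile), filters, pseudocounts of 1 and 0.01, DESeq2 1.42.0, limma on FPKM of the implantation stage, limma without trend, a replicate block, merged rows left out and each library left out. Added after the data were seen were members summed with their named pseudogenes and scaling to the FPKM of protein-coding rows. The fits were tested on simulated data with known changes. Scripts used Python 3.11.15 and pandas 2.3.3. Promoter and protein sequences were not analysed here. Some genes of the family and of the lists are counted but not reported here by name.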

Additional observations from a re-analysis of the deposited data

Results flagged for a closer look

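A row named Rps29 that held no Ensembl transcript, and so was not a member, reached 125.2 FPKM in the implantation table, with 4.31, 50.4 and 6.003 FPKM at E0.5 and 125.2, 75.1 and 1.14 at E4.5. It was the largest of 22 such rows, of which none of the others exceeded 3.65 FPKM in any library. In the labor table there were 4 such rows, and the highest value, in a row named Rpl5, was 3.98 FPKM. These rows drew attention because they hold signal under a ribosomal protein name outside the rows that were compared. The groups overlapped in the Rps29 row.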

How the results depend on the processing

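In both comparisons and in their difference 0 members had an adjusted p under 0.05 under every setting run, except for Rpl36al with DESeq2 (1 member). The direction of the median log2 fold change of the members held under every alternative for both comparisons and was from -0.29 to -0.06, with 51 to 77 members below 0, for E0.5 against E4.5 with 1 library left out, while the median difference between the stages ranged from -0.02 to 0.40. With 1 library left out, the study's criterion took in 0 to 2 members, 0 to 1 were higher and 1 to 17 lower at E0.5, 0 to 26 were lower at E18.5, 1 to 4 had a difference below 0 between the stages, and 0 to 16 biogenesis factors passed the adjusted p at the implantation stage. DESeq2 put 2 members past the study's criterion (14.5% of all rows) and 17 biogenesis factors past the adjusted p. limma on FPKM put 0 biogenesis factors past it with a pseudocount of 0.1 or 1, and 8 members were lower with a pseudocount of 1 (7.78% of all rows). A minimum mean of 1 FPKM left 0 members past the study's criterion, sums with named pseudogenes left 0 higher, and upper quartile factors left 2 lower. At the labor stage 53 members were below 0 without merged rows, where fewer members entered, 2 were lower with scaling to the 75th percentile and 2 with scaling to protein-coding rows. Quantile normalization left 1 member with a difference below 0. With the replicate number as a block, 0 members were higher and 1 lower at E0.5, 0 passed the study's criterion, 0 biogenesis factors passed the adjusted p and 1 member had a difference below 0. Samples of the same number did not deviate together (correlations of -0.06 to 0.02). These 3 correlations for each comparison gave no sign that the numbers pair the mice, and are too few to exclude it. The block changed no count at the labor stage. The share of the members was 1.21% and 1.28% of counts at E0.5 and E4.5, and 5.93% and 6.31% of protein-coding FPKM there. At the labor stage it was 5.12% of protein-coding FPKM at E15.5 and 4.003% at E18.5. Signs of single genes near 0 changed. For E0.5 against E4.5, the log2 fold change with upper quartile factors was 0.017 for Rplp1 and 0.018 for Rps6, and that of Rps2 summed with its pseudogenes was -0.32. With 1 library left out it ranged from -0.38 to 0.096 for Rplp1, from -0.24 to 0.050 for Rps6, from -0.20 to 0.22 for Rplp2, from -0.18 to 0.15 for Rplp0, from -0.22 to 0.052 for Rpl24, from -0.35 to 0.058 for Rpsa and from -1.29 to 5.10 for Rps2. The library whose absence turned the sign of Rps2 was E0.5 replicate 3. For E18.5 against E15.5, Rps15 had 0.053 with quantile normalization. With 1 library left out the range was -0.48 to 0.0096 for Rpl24, -0.035 to 2.47 for Rps16 and -0.39 to 0.19 for Rps27l, and the sign of these 3 turned without E15.5 replicate 1. Where a value or the construction of the setting does not show it, the cause was not tested. Over all alternatives, 602 values of named genes kept direction and side of the threshold, 20 changed sign and 1 (Rpl36al with DESeq2) came past the threshold. Of the values for counts, medians and shares, 251 were the same and 52 moved. The counts behind the labor values are not known.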
